A study of Mus musculus with 3 samples.

Results

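The proteasome is described here through its gene family in mouse liver RNA compared with mouse spleen RNA. Members were the genes of probes that the platform annotation gives a single symbol starting with Psma to Psmg and a number. The rule found 53 probes of 45 genes, among 16281 probes and 10698 singly named genes on the array. Of the 45 genes, 41 had a probe measured on all 3 arrays and were tested, among 9803 genes tested in all.

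The study hybridised purchased liver RNA in the red dye (Cyanine-5) against purchased spleen RNA in the green dye (Cyanine-3) on 3 two-colour oligonucleotide arrays. Both were total RNAs of mouse, copied into cRNA with 1 round of amplification. One product per tissue served all arrays, and strain, sex, age and number of animals are not in the labels. The arrays are repeats of 1 pair of RNAs, so each SD and p-value reflects technical spread between arrays. None of them measures spread between animals. Liver was red on every array, so dye and tissue cannot be told apart for any probe.

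The proteasome is the chamber in which cells degrade proteins marked with ubiquitin. Its 20S core is a stack of rings of alpha subunits, which gate the entrance, and beta subunits, among which Psmb5, Psmb6 and Psmb7 carry the proteolytic sites. Cells of the immune system, and cells exposed to interferon-gamma, build in Psmb8, Psmb9 and Psmb10 instead, which gives the immunoproteasome known for making peptides for MHC class I. The 19S particle, made of Psmc ATPases and Psmd subunits, recognises, unfolds and feeds in the substrates, while Psme activators open the core without ubiquitin and Psmg chaperones assemble it.

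Values are the deposited log2 ratios, read as liver over spleen and given as mean ± SD over n = 3 arrays unless stated. That direction is likely, and the labels do not state it. Of the liver genes used to check it, Ahsg, a plasma glycoprotein, averaged 3.76 ± 0.30, and it alone of that set had a value on all arrays. The median of 7 spleen genes lay between -1.69 and -1.16 on the arrays. A value of exactly 0 was taken as no measurement. The number of arrays limits the precision, and no channel intensity was used here, so which probes lay near background is unknown. Among marker genes, 5 of 6 hepatocyte genes were higher in liver, with 2 further genes without a value on all arrays (Apoh listed at 0 on every array, Alb on arrays 1 and 3). The remaining one, Cyp2e1, averaged 0.43 ± 0.38 and did not pass. Markers of B cells (6 of 7), T and NK cells (4 of 6), macrophages (5 of 6), dendritic cells and MHC class II (7 of 7), erythroid cells (5 of 5) and dividing cells (5 of 5) were higher in spleen. Exceptions higher in liver were Zap70 among the T-cell genes and Clec4f, a Kupffer cell lectin, among the macrophage genes. In such bulk RNA, fewer cells of a type and less RNA per cell cannot be told apart, and the part of these cell types in the values below was not tested.

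Most proteasome genes were higher in liver, by modest amounts. Of the 41 tested, 24 passed the test toward liver, 2 toward spleen and 15 did not pass. Without Psmb5-ps and Psmc3ip, which match the rule by name without being subunits, 23 of 39 passed toward liver and 2 toward spleen. The threshold was an adjusted p of 0.05 in limma's fit over all 9803 genes, of which 25.3% passed toward liver and 27.4% toward spleen. The median of the 41 was 0.37 and their range -0.50 to 1.18, against a median of 0.02 over all genes tested. By array, the median of the 41 was 0.39, 0.33 and 0.41 on arrays 1, 2 and 3. A ratio of 2-fold or more was reached by 3 members past the test (Psmb6, Psmd9 and Psmb2), all toward liver, where 9.21% of all genes reached it, against 8.4% toward spleen. The sign was the same on all arrays for 35 of the 41, and for 74.7% of all genes. The plot of every member by array shows the roles side by side.

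**Figure D1:**
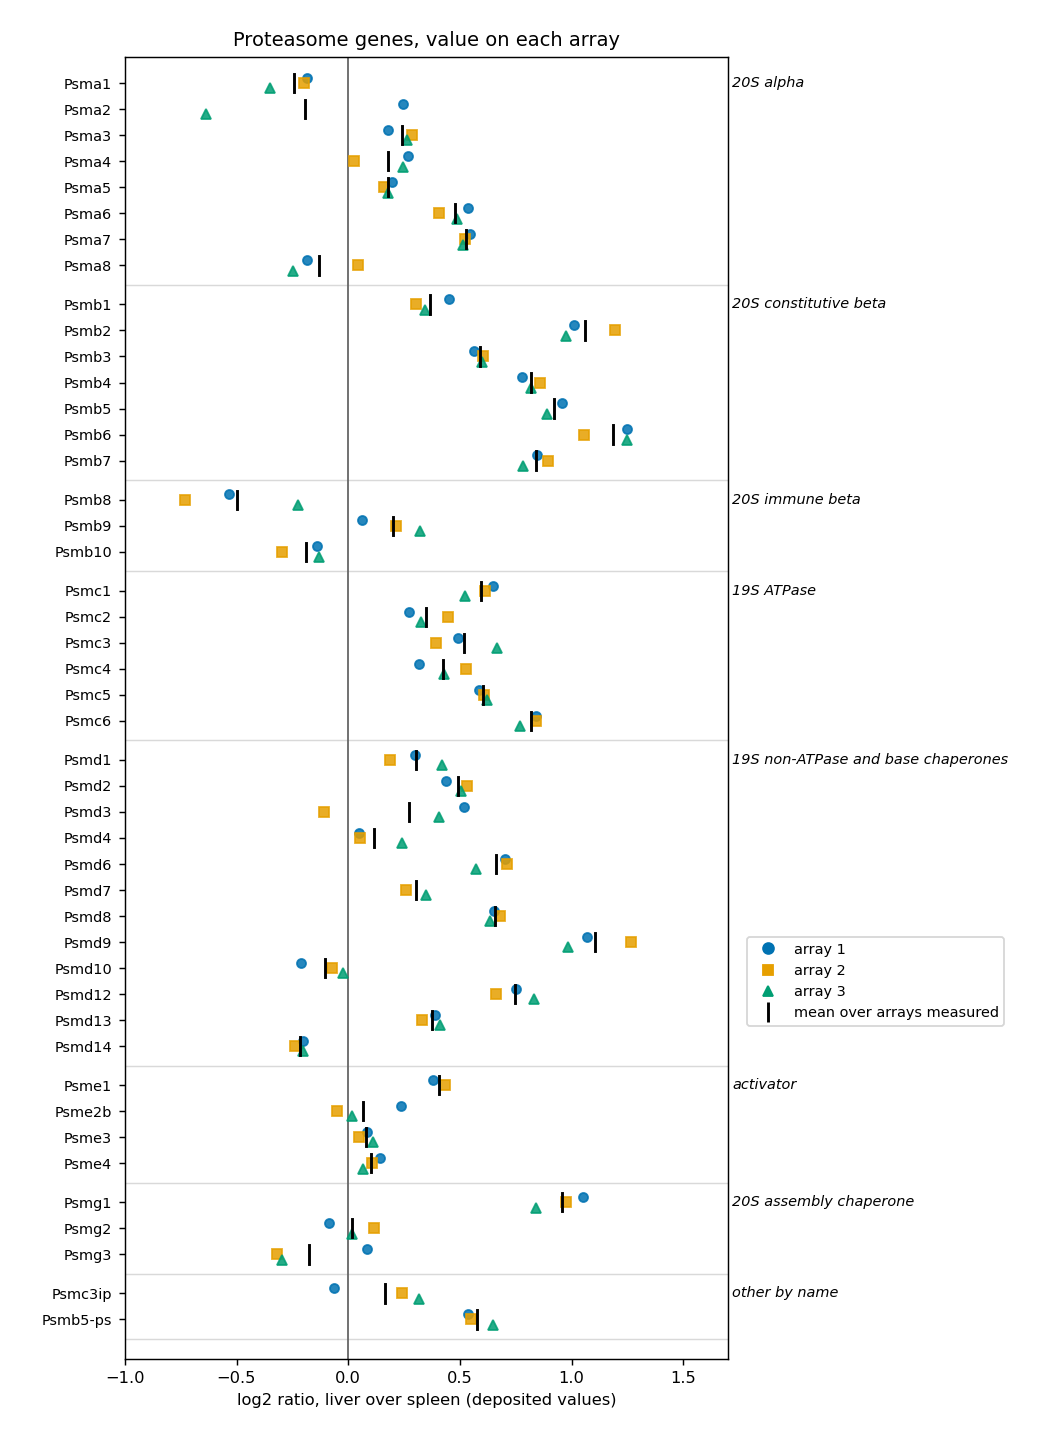
Log2 ratio of liver over spleen (x axis) for each of the 45 genes that matched the name rule (y axis, by role). Symbols are the arrays and black bars the mean over the arrays that measured the gene. The constitutive beta subunits and the 19S ATPases lie right of 0 on every array, while Psmb8 and Psmb10 lie left of 0 on every array.

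The alpha ring subunits were mixed, with small ratios for most and higher ones for Psma6 and Psma7. Of 7 tested alpha genes, 3 passed toward liver and 1 toward spleen, with a median of 0.18. Of all genes, 25.3% passed toward liver and 27.4% toward spleen. Psma7 read 0.54, 0.52 and 0.51 on arrays 1, 2 and 3, and averaged 0.53 ± 0.02 (adjusted p = 0.00224, limma). Psma6 averaged 0.48 ± 0.06 (adjusted p = 0.00392, limma). These 2 had the highest ratios of the ring. Psma3 averaged 0.24 ± 0.06 and passed the test (adjusted p = 0.0419, limma), but not when any 1 array was left out (adjusted p = 0.102 to 0.157, limma) or with the arrays centred (0.22, adjusted p = 0.0582, limma). Psma1 was the member toward spleen, reading -0.18, -0.20 and -0.35 for a mean of -0.24 ± 0.09 (adjusted p = 0.0489, limma). It too did not pass without any 1 array (adjusted p = 0.114 to 0.170, limma). Psma4 at 0.18 ± 0.13, Psma5 at 0.18 ± 0.02 and the testis alpha subunit Psma8 at -0.13 ± 0.15 did not pass. Psma2 was measured on arrays 1 and 3 only, where it read 0.25 and -0.64, with opposite signs (adjusted p = 0.523 with array 2 missing in the fit, limma).

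The constitutive beta ring was the group with the highest median among the roles, at 0.83. All 6 tested genes passed toward liver, against 25.3% of all genes. Psmb6, the subunit of caspase-like activity, read 1.25, 1.06 and 1.25, averaging 1.18 ± 0.11 or 2.27-fold (adjusted p = 0.000168, limma). Psmb2, a non-catalytic beta subunit, read 1.01, 1.19 and 0.97, averaging 1.06 ± 0.12 or 2.08-fold (adjusted p = 0.000268, limma). All arrays of both genes stood at or near 2-fold or above. Psmb7, the subunit of trypsin-like activity, read 0.85, 0.90 and 0.78, averaging 0.84 ± 0.06. Psmb4 averaged 0.82 ± 0.04 and Psmb3 0.59 ± 0.02, both structural members of the ring. Psmb1 had the lowest ratio of the ring, 0.37 ± 0.08 (adjusted p = 0.0114, limma), and did not pass without array 1 (adjusted p = 0.0674, limma). The lower of its probes did not pass by itself (adjusted p = 0.0564, limma). Psmb5, the subunit of chymotrypsin-like activity, was listed at 0 on array 2 and read 0.95 and 0.89 on arrays 1 and 3. In a fit that kept it with array 2 missing, its adjusted p was 0.00215 (limma). The alpha and beta genes overlapped, since Psmb1 lay below Psma6 and Psma7.

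The immune beta subunits had lower mean ratios than the constitutive beta subunits, with Psmb8 and Psmb10 below 0 and Psmb9 above 0. Of the 3 genes, none passed toward liver and 1 passed toward spleen, against 25.3% and 27.4% of all genes. With 3 genes, these counts do not set the immune subunits apart from all genes. Psmb8, which takes the place of Psmb5, read -0.54, -0.73 and -0.22, a mean of -0.50 ± 0.26 and 1.41-fold higher in spleen (adjusted p = 0.0161, limma). It was below 0 on all arrays but did not pass without array 1 (-0.48, adjusted p = 0.0657, limma) or without array 2 (-0.38, adjusted p = 0.0750, limma). Psmb10, which takes the place of Psmb7, read -0.14, -0.30 and -0.13, averaging -0.19 ± 0.09 (adjusted p = 0.0991, limma). Both of its probes had means below 0, -0.24 ± 0.03 and -0.13 ± 0.15. Psmb9, which takes the place of Psmb6, read 0.06, 0.22 and 0.32, averaging 0.20 ± 0.13 (adjusted p = 0.103, limma). It was above 0 on all arrays, unlike the other 2 immune subunits.

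Each immune subunit had a lower liver over spleen ratio than the constitutive subunit it replaces, on every array where both were measured. The difference of log2 ratios, Psmb10 minus Psmb7, was -0.98, -1.19 and -0.91 on arrays 1, 2 and 3, a mean of -1.03 ± 0.14 or 2.04-fold. Psmb9 minus Psmb6 was -1.18, -0.84 and -0.93, a mean of -0.99 ± 0.18 or 1.98-fold. Psmb8 minus Psmb5 was -1.49 and -1.11 on arrays 1 and 3, a mean of -1.30 ± 0.27 (n = 2 arrays) or 2.46-fold. Each of the 3 mean differences was several times its SD. That SD is over repeat arrays of the same probes, so it does not include a constant difference between probes. Apart from Psmb10, each of these subunits was measured by 1 probe. Where a gene had 2 probes, they differed by 0.71 ± 0.22 for Psmc4 and by 0.02 ± 0.06 for Psmc1. An exact two-sided sign-flip permutation test gave p = 0.25 for Psmb10 with Psmb7 and for Psmb9 with Psmb6, and p = 0.5 for Psmb8 with Psmb5. These are the smallest p-values that 3 and 2 arrays allow, and over the 5 pairs compared the adjusted p was 0.625 for all 3. These are differences of ratios, and neither tissue's level of one subunit can be set against its level of another.

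**Figure D2:**
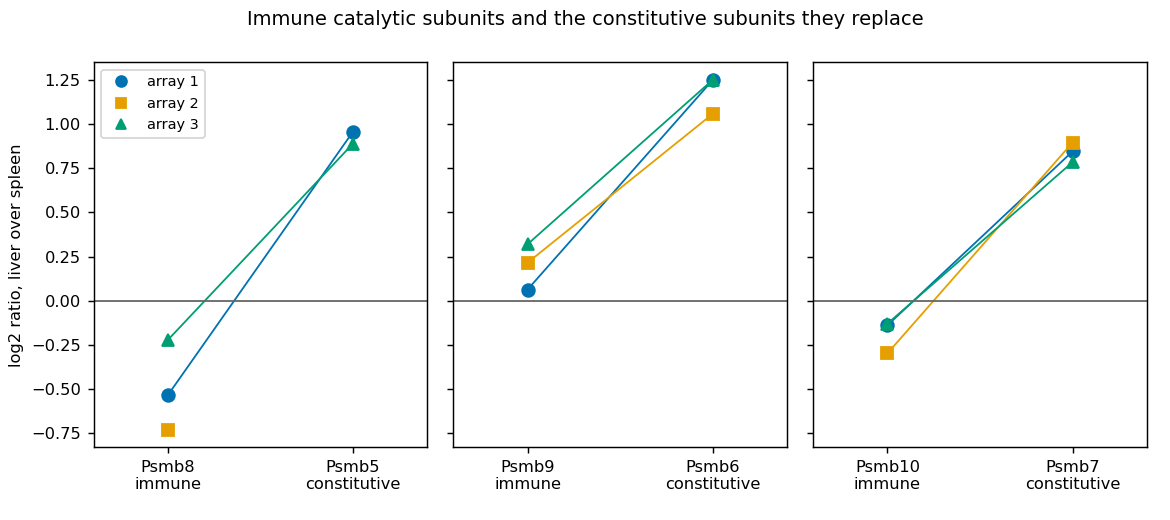
Log2 ratio of liver over spleen (y axis) of each immune beta subunit (left) and of the constitutive subunit it replaces (right). Each symbol and line is 1 array. All 8 lines rise from left to right, and array 2 has no value for Psmb5.

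The start-site regions of Psmb8 with Psmb5 and of Psmb9 with Psmb6 are shown because these partners differ in ratio. Psmb7 had no window in the table used, so Psmb10 with Psmb7 is not shown. They are the RefSeq windows (GRCm38.p6) of 250 bases before to 50 after the start of transcription, 5′ to 3′ on the gene's strand. Capitals mark matches, on either strand, to TTCNNNGAA (core of the gamma-activated sequence), TGANNNNGC (core of the antioxidant response element) and CCAAT. The core of the interferon-stimulated response element, GAAA, any 2 bases and GAAA again, was searched too and has no match in the 4.
Psmb8 (chr17:34197945-34198244, + strand): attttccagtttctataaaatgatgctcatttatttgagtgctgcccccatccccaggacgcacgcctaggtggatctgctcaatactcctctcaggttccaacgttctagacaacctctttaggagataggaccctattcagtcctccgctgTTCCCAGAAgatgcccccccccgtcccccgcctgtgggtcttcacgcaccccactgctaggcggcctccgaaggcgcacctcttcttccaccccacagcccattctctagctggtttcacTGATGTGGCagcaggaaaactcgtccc
Psmb5 (chr14:54617946-54618245, - strand): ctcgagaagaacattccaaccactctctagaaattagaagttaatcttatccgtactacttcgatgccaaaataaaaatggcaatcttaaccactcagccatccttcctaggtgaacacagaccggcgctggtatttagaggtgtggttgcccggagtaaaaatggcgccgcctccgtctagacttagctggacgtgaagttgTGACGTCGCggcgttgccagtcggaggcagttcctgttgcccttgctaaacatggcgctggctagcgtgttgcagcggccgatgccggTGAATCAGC
Psmb9 (chr17:34187281-34187580, - strand): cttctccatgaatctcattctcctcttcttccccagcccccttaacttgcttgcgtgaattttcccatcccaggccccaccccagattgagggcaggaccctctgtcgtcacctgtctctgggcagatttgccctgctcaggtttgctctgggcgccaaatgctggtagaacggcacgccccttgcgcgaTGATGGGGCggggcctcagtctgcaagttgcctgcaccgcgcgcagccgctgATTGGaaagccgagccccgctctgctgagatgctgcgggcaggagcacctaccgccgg
Psmb6 (chr11:70525107-70525406, + strand): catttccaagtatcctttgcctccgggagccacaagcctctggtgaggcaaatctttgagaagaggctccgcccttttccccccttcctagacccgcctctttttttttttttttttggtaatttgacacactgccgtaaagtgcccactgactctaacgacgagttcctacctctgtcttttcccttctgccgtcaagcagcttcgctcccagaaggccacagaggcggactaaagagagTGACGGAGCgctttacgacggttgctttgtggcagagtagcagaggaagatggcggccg
Psmb8 alone of the 4 held TTCNNNGAA, as TTCCCAGAA from position -97, counted from the start site. The match to TGANNNNGC began at position 24 in Psmb8, at -47 and 42 in Psmb5, at -60 in Psmb9 and at -9 in Psmb6. Psmb9 also held CCAAT, on the opposite strand. The marked matches do not overlap one another.

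Windows were found for 36 of the 45 members (38 windows). TTCNNNGAA was in 1 of the 3 immune windows and 0 of the 12 core windows, against 8.3% of all 32851 windows. The core of the interferon-stimulated response element was in 0 of the 3 immune windows and 1 of the 12 core windows, against 3.44% of all. TGANNNNGC was in 2 of the 3 immune windows, 9 of the 12 core windows and 9 of the 22 windows of regulators, against 41.3% of all. All 4 constitutive beta windows held it, and Psmb1, Psmb2 and Psmb7 had no window. Psma6 has 2 of the 12 core windows, both with TGANNNNGC, so these windows are of 11 genes. CCAAT was in 14 of the 38 member windows, close to the 37.4% of all. These matches describe letters in the windows and are not binding sites. In the gene table, Psmb9 and Psmb8 lie on chromosome 17 on either side of Tap1, which carries peptides into the endoplasmic reticulum, and Tap2 follows Psmb8. Tap1 averaged -0.32 ± 0.09 and passed toward spleen (adjusted p = 0.0194, limma), while Tap2 at -0.09 ± 0.10 did not (adjusted p = 0.391, limma). Tap1 did not pass without array 1 or without array 2 (adjusted p up to 0.0942, limma).

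The ATPase genes of the 19S particle were higher in liver as gene means. All 6 Psmc genes passed the test toward liver, against 25.3% of all genes, with a median of 0.55. Psmc6 read 0.84, 0.84 and 0.77, averaging 0.82 ± 0.04 or 1.76-fold (adjusted p = 0.000446, limma). Psmc5 averaged 0.61 ± 0.02, Psmc1 0.59 ± 0.06 and Psmc3 0.52 ± 0.14. Their arrays stayed between 0.39 and 0.66. Psmc4 averaged 0.42 ± 0.11 and Psmc2 0.35 ± 0.09, the lowest of the ring. The Psmc4 mean joins probes that disagree, at 0.78 ± 0.10 and 0.07 ± 0.19, and only the higher one passed by itself (adjusted p = 0.000986 and 0.591, limma). Psmc2 did not pass without array 2 (adjusted p = 0.0794, limma), and its lower probe did not pass by itself (adjusted p = 0.0766, limma).

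Most other 19S genes were higher in liver. Of 11 tested Psmd genes, 7 passed toward liver and none toward spleen, against 25.3% and 27.4% of all genes, with a median of 0.38. In the lid, the part that removes ubiquitin, Psmd12 read 0.75, 0.66 and 0.83, averaging 0.75 ± 0.09 or 1.68-fold (adjusted p = 0.000795, limma). Psmd6 averaged 0.66 ± 0.08, Psmd8 0.66 ± 0.02 and Psmd13 0.38 ± 0.04, all past the test. Psmd14, the deubiquitinase of the lid, went the other way and read -0.20, -0.24 and -0.20. Its mean of -0.21 ± 0.02 lay just outside the threshold (adjusted p = 0.0551, limma) and passed toward spleen with the arrays centred (-0.24, adjusted p = 0.0431, limma). Psmd3 read 0.52, -0.11 and 0.41 and did not pass, but passed toward liver without array 2 (0.46, adjusted p = 0.0276, limma). Psmd7 read 0.26 and 0.35 on arrays 2 and 3 and was listed at 0 on array 1. With that array missing in the fit, its adjusted p was 0.0666 (limma).

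In the base, the scaffold subunits Psmd2 and Psmd1 averaged 0.49 ± 0.05 and 0.30 ± 0.12 and passed toward liver. Psmd1 did not pass without any 1 array (adjusted p = 0.0548 to 0.105, limma). Psmd4, a ubiquitin receptor, averaged 0.11 ± 0.11 and did not pass. The chaperone Psmd9, which helps assemble the ATPase ring, read 1.07, 1.26 and 0.98, averaging 1.11 ± 0.14 or 2.15-fold (adjusted p = 0.000281, limma). It stood beside Psmb6 and Psmb2 as the members with the highest ratios. Psmd10 (gankyrin), another chaperone of that ring, averaged -0.10 ± 0.10 and did not pass. That mean joins probes of opposite sign, and with the probe of largest absolute mean the gene passed toward spleen (-0.45, adjusted p = 0.00969, limma).

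The tested activators had ratios near 0. None of the 3 tested Psme genes passed the test, against 52.8% of all genes in either direction. Psme3 of the nuclear activator PA28-gamma averaged 0.08 ± 0.03 and Psme4, the activator PA200, 0.10 ± 0.04. The probe annotated to Psme2b, a copy of the interferon-inducible Psme2, averaged 0.07 ± 0.15, and it may also report Psme2, for which no probe was named. Psme1, the partner of Psme2 in PA28, was listed at 0 on array 3 and read 0.38 and 0.43 on arrays 1 and 2. In the fit that kept it with array 3 missing, its adjusted p was 0.0293 (limma). Psme1 minus Psme3 was 0.29 and 0.38 on those arrays, a mean of 0.34 ± 0.06 (n = 2 arrays, exact sign-flip p = 0.5, adjusted p = 0.625). Psme2b minus Psme3 averaged -0.01 ± 0.14 and changed sign between arrays (exact sign-flip p = 1). No Psmf gene was named on the array.

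The 20S assembly chaperones differed among themselves. Psmg1 read 1.05, 0.97 and 0.84, averaging 0.96 ± 0.11 or 1.94-fold higher in liver (adjusted p = 0.000363, limma). Psmg2, its partner in a heterodimer, read -0.08, 0.12 and 0.02, averaging 0.02 ± 0.10 (adjusted p = 0.878, limma). The arrays of Psmg1 all lay above those of Psmg2. Psmg3 averaged -0.18 ± 0.23 and did not pass. Another pair of genes matched the name pattern without being subunits. The pseudogene Psmb5-ps averaged 0.58 ± 0.06 and passed toward liver, and since its sequence resembles Psmb5 its probe may share signal with it. Psmc3ip, a meiotic recombination factor, averaged 0.16 ± 0.20 and did not pass.

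By the broad classes, 9 of 13 core genes passed toward liver and 1 toward spleen, 0 of 3 immune genes toward liver and 1 toward spleen, and 14 of 23 regulators toward liver and none toward spleen. The medians were 0.48 for the core, -0.19 for the immune subunits and 0.38 for the regulators. On arrays 1, 2 and 3 the core medians were 0.54, 0.41 and 0.49, and the immune medians -0.14, -0.30 and -0.13. The core median exceeded the immune median on every array.

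**Figure D3:**
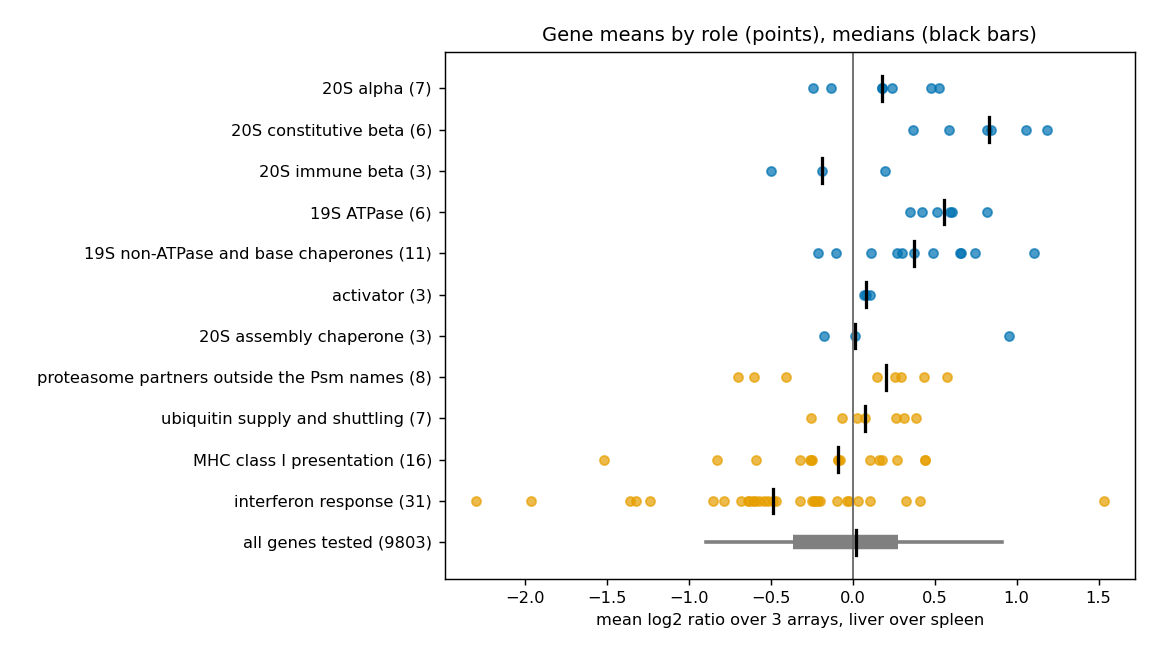
Mean log2 ratio of liver over spleen over 3 arrays (x axis) for the tested genes of each role (blue) and of 4 related lists (orange), with the number of genes in parentheses and medians as black bars. For all genes tested, the thick grey bar spans the 25th to 75th percentile (-0.36 to 0.28) and the thin line the 10th to 90th (-0.90 to 0.91). The constitutive beta subunits have their median at 0.83 and the interferon response list at -0.48.

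Of the 45 members, 8 were measured by a pair of probes on all arrays, and their agreement shows how far a single probe can be read. For Psmc1 the probes averaged 0.60 and 0.58 and for Psmc5 0.64 and 0.57. In those cases the difference was within its SD over the arrays, 0.06 and 0.17. For Psmc4 the probes averaged 0.78 ± 0.10 and 0.07 ± 0.19, apart by 0.71 ± 0.22. For Psmd10 they had opposite signs, 0.25 ± 0.14 and -0.45 ± 0.14. With each probe tested on its own, the lower Psmd10 probe passed toward spleen (adjusted p = 0.0105, limma), and the higher one did not pass (adjusted p = 0.0733, limma). For Psmd2 they averaged 0.68 and 0.30 and for Psmb1 0.48 and 0.25. For Psmc2 they averaged 0.42 and 0.28, apart by 0.14 ± 0.25, which is also within the SD. The lower probes of Psmb1 and Psmc2 did not pass on their own (adjusted p = 0.0564 and 0.0766, limma). The Psmb10 probes were apart by 0.11 ± 0.12, within the SD too, and the lower one passed toward spleen on its own (adjusted p = 0.0482, limma). Of all 14122 probes tested singly, 23.5% passed toward liver and 26.7% toward spleen. The other 33 tested members rested on 1 probe each, where such a disagreement would not be seen.

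**Figure D4:**
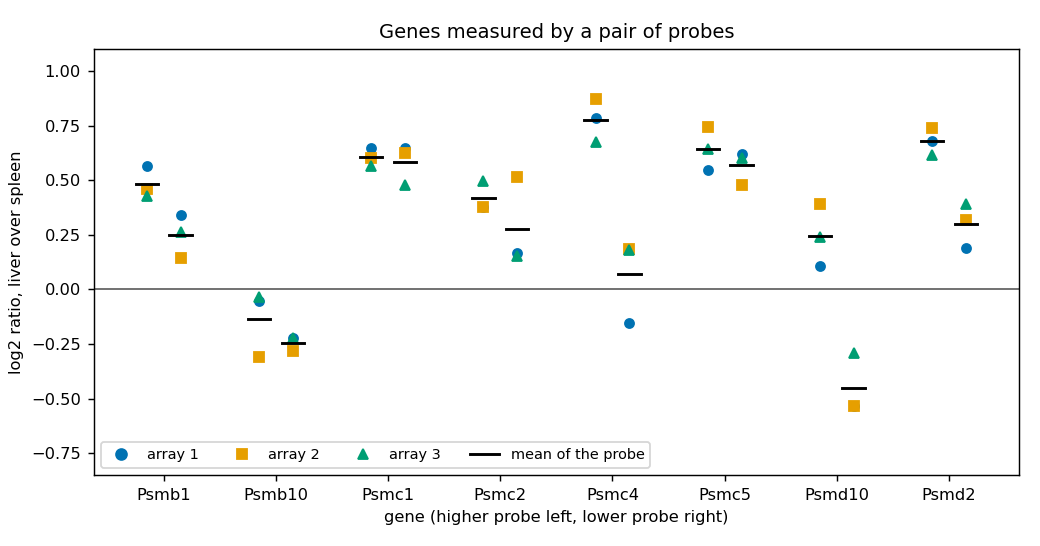
Log2 ratio of liver over spleen (y axis) for each probe of the 8 genes with a pair of probes, with the higher probe left and the lower right. Symbols are arrays and bars the probe's mean. The probes of Psmc1 and Psmc5 lie together, while those of Psmc4 are apart by 0.71 and those of Psmd10 lie on either side of 0.

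Of 8 tested genes listed as proteasome partners outside the Psm names, 4 passed toward liver and 3 toward spleen, with a median of 0.20. These 8 include the transcription factors Nfe2l1 and Nfe2l2, given below. Of all genes, 25.3% and 27.4% passed in these directions. Sem1, a small lid subunit, averaged 0.58 ± 0.03, and Txnl1, a redox protein bound to the particle, 0.43 ± 0.06. Uchl5, a deubiquitinase of the particle, averaged -0.70 ± 0.25, and Akirin1 -0.60 ± 0.08. Usp14, another such deubiquitinase, passed toward liver at 0.26 ± 0.07, but not without any 1 array (adjusted p = 0.0700 to 0.171, limma). The following were picked after their values were seen. Nfe2l1, the transcription factor that induces proteasome genes when the proteasome is inhibited, averaged 0.29 ± 0.11 (adjusted p = 0.0302, limma), and its relative Nfe2l2 averaged -0.40 ± 0.02 (adjusted p = 0.00628, limma). Nfe2l1 did not pass without any 1 array (adjusted p = 0.0552 to 0.138, limma). The core maturation factor Pomp was listed at 0 on array 1 and read 0.67 and 0.75 on arrays 2 and 3.

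Genes that supply and shuttle ubiquitin conjugates showed small ratios. Of 7 tested, 3 passed toward liver and 1 toward spleen, against 25.3% and 27.4% of all genes, with a median of 0.07. The ubiquitin chain elongation factor Ube4b averaged 0.39 ± 0.07 and Ufd1, a cofactor of the unfoldase Vcp, 0.31 ± 0.15. The shuttle Ubqln4 averaged 0.26 ± 0.01 and its relative Ubqln1 -0.25 ± 0.01, on opposite sides of 0. Leaving out an array ended the calls of Ubqln4 and Ubqln1 in every case (adjusted p = 0.0782 to 0.125, limma), that of Ube4b without array 2 (adjusted p = 0.0545, limma) and that of Ufd1 without array 2 or array 3 (adjusted p = 0.139 and 0.113, limma). Vcp itself averaged -0.07 ± 0.02 and did not pass.

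MHC class I presentation is the pathway that uses immunoproteasome products. Of its 16 tested genes, 3 passed toward liver and 4 toward spleen, with a median of -0.09. These counts are near the 25.3% and 27.4% of all genes. The non-classical class I genes H2-M3, H2-T23 and H2-Q7 averaged -1.52 ± 0.13, -0.83 ± 0.11 and -0.59 ± 0.04, and the chaperone Calr 0.44 ± 0.07. The classical class I genes H2-K1 and H2-D1, picked after their values were seen, did not pass. H2-K1 averaged -0.25 ± 0.22 (adjusted p = 0.0966, limma). H2-D1 averaged -0.25 ± 0.38 (adjusted p = 0.221, limma) and was above 0 on array 3. H2-Q10, a class I gene known for expression in liver and picked after its values were seen, was listed at 0 on array 1 and read 4.14 and 2.84 on arrays 2 and 3. Class I genes resemble one another, and their probes may share signal. Of 31 interferon response genes, 18 passed toward spleen and 3 toward liver, against 27.4% and 25.3% of all genes, with a median of -0.48. Irf8 averaged -2.30 ± 0.32, Jak2 -1.96 ± 0.05 and Jak1 -1.36 ± 0.04, while the GTPase Iigp1 averaged 1.53 ± 0.06. Irf8 is also a marker of the dendritic cell list. Their relation to the immune subunits was not tested.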

How the data were processed

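Gene expression in mouse liver and spleen RNA was measured on 3 two-colour arrays. The deposited table holds the authors' log2 ratio of the channels for 16281 probes per array. The log base was taken from the values, whose highest on each array is the log2 of 100. How the authors corrected background, normalized and filtered is not given in the sources used here. No sample column was left unused, and slide or scan batches are not given in the labels.

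Exact zeros were taken as no measurement (1414, 1098 and 1137 probes on arrays 1, 2 and 3). Probes were named from the platform annotation. All 45 member symbols were unchanged in a RefSeq gene table (GRCm38.p6). Probes of a gene measured on all 3 arrays were averaged. The mean log2 ratio per gene was compared with 0 (limma 3.58.1, R 4.3.3). The model had an intercept alone, with variances moderated at 3.38 prior degrees of freedom, two-sided p-values and Benjamini-Hochberg adjustment over 9803 genes. The fit was tested on simulated data. Differences between paired genes were tested over arrays with an exact sign-flip permutation test. The comparison of Psme2b with Psme3 was chosen after seeing the data, in place of Psme2, as was the grouping of Psmd genes into lid, base and chaperones. Member lists get counts and medians and no test. All members could be named, and of each related list, among genes past the test, the 4 with the greatest absolute mean plus the greatest on the other side. Usp14, Vcp, Tap1 and Tap2 were named after their values were seen, as were the genes so marked in the text. The members and lists were chosen with earlier results of these data known. Alternatives changed zero handling, centring, scaling, the probes behind a gene, the unit tested, the variance model, the limit tested and the arrays included. A further alternative, chosen after seeing the data, left Psmb5-ps and Psmc3ip out of the counts of all members.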

Additional observations from a re-analysis of the deposited data

How the results depend on the processing

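No member past the test reversed under any alternative run, and 26 of the 41 tested members kept their side of the threshold under all alternatives run for them. The 8 members with a pair of probes have no single value with each probe on its own, and counts in that setting are of probes. Of 26 related genes named, which leave out H2-K1 and H2-D1, 14 kept theirs and none reversed. The count toward liver (24) ranged from 17, when tested against 1.2-fold, to 26. That of the core (9) ranged from 6 to 10 and that of the regulators (14) from 10 to 17. The counts toward spleen rest on few genes. For all members (2), it was 1 with probes measured on at least 2 arrays, with genes of 2 arrays added (chosen after seeing the data) and with unmoderated variances, 0 against 1.2-fold, 0 to 1 with an array left out, and 3 with zeros kept, arrays centred, the probe of largest absolute mean or each probe on its own. For the core (1, Psma1), it was 0 with probes measured on at least 2 arrays, the probe of largest absolute mean, each probe on its own, genes of 2 arrays added, unmoderated variances, against 1.2-fold and with any array left out. For the immune subunits (1, Psmb8), it was 2 with the probe of largest absolute mean or each probe on its own, 0 with unmoderated variances or against 1.2-fold, and 0 to 1 with an array left out. For the regulators (0), it was 1 with zeros kept, arrays centred, the probe of largest absolute mean, each probe on its own or unmoderated variances. The adjusted p of Psmb8 ranged from 0.00581 to 0.144 over these settings. The differences between immune and constitutive partners kept their sign in all alternatives run. Each lay below 0 on every array with both genes, so leaving out an array, centring or scaling could not change the sign. The differences ranged from -1.09 to -0.95 for Psmb10 minus Psmb7 and from -1.06 to -0.89 for Psmb9 minus Psmb6. For Psmb8 minus Psmb5 they ranged from -1.49 to -1.11. Psme2b minus Psme3 changed sign, from -0.097 to 0.0296, with an array left out. No paired analysis was possible because there is 1 group of arrays and no other group whose replicate numbers could serve as a block. The ratio within each array already pairs liver with spleen. The causes of these shifts were not tested, and signal over background is unknown.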
